A study of Mus musculus with 4 samples.

Results

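Blood T cells of a mouse given an agonistic antibody to OX40 together with CpG were compared with blood T cells of an untreated mouse by single-cell RNA sequencing. T cells were taken from the raw counts of unique molecular identifiers (UMIs, 1 for each captured transcript molecule) as cells with 200 to 2900 genes detected and at least 1 UMI of *Cd3d*, *Cd3e* or *Cd3g*, the genes of the CD3 chains. Mitochondrial, ribosomal and hemoglobin genes were not counted. This left 697 of 862 deposited cells of the untreated library and 1481 of 1583 of the anti-OX40/CpG library, together 2178 of the 2445 cells of both libraries. The whole series holds 5434 deposited cells in 4 libraries, and 4835 of them were T cells by the same rule.

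All mice were female C57BL/6 animals, 6 to 8 weeks old at the start, and all carried MC-38 tumors, a mouse colorectal carcinoma line injected under the skin. The untreated mouse received no immunotherapy. The treated group received 150 μg of anti-OX40 and 25 μg of CpG on day 7 after tumor challenge, and its sample label names OX40 only. The anti-PD-L1 and PDOX groups, shown further below, received anti-PD-L1 on days 10, 13 and 17, the PDOX group in addition to anti-OX40 and CpG. Blood of treated and untreated mice was taken on day 18. Each group is 1 library of T cells enriched from blood, and since the record in GEO counts 4 mice for the 4 samples, effects of mouse, library and treatment cannot be told apart.

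OX40 (encoded by *Tnfrsf4*) is a costimulatory receptor of the TNF receptor family that activated T cells display, and its engagement supports their survival and their differentiation into effector cells. CpG oligonucleotides are ligands of TLR9, an endosomal sensor of B cells and dendritic cells, and act as an adjuvant. Effector T cells differ from naive T cells in that they lose lymph node homing receptors, gain receptors for inflamed tissue and, in the CD8 lineage, load granules with granzymes.

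A level is given as UMIs per 10000, the UMIs of a gene summed over the T cells of a library and divided by all UMIs of these cells without mitochondrial, ribosomal and hemoglobin genes. A ratio is the level in the anti-OX40/CpG library over that in the untreated library. With 1 library a side there was no replicate check and no test of the treatment, and all 95% intervals cover counting error only. A gene is called higher or lower when its ratio was at least 1.5 or at most the inverse of 1.5, with at least 50 UMIs over both libraries in the cells compared. The T cells held 1157478 UMIs in the untreated and 2576218 in the anti-OX40/CpG library, with a median of 1568 and 1665 per cell. Ribosomal genes took 39.8% and 41.7% of the T cells' counts and mitochondrial genes 2.75% and 2.44%.

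Transcripts of other white blood cells were fewer in the anti-OX40/CpG than in the untreated library, with little difference for neutrophil markers. *Lyz2*, the lysozyme gene of monocytes and neutrophils, had a UMI in 248 untreated T cells (35.6%) and in 43 anti-OX40/CpG T cells (2.90%), and in 6 of 29 untreated and 0 of 7 anti-OX40/CpG B cells. The summed level of 9 monocyte markers was 44.9 UMIs per 10000 in untreated and 9.32 in anti-OX40/CpG T cells, and none of the 9 was at 0 in either library. In CD4 T cells these sums were 56.0 and 5.14, and in CD8 T cells 18.7 and 5.76. The 6 measured B cell markers summed to 12.2 and 1.79, the 9 NK cell markers to 8.82 and 3.18, the 7 neutrophil markers to 0.864 and 0.741 and the 7 platelet markers to 0.916 and 0.163. The 8 erythroid markers went the other way, at 7.93 and 33.2, with 7623 of the 8554 anti-OX40/CpG UMIs in 3 cells, and their hemoglobin genes enter no total. In the untreated library most UMIs of the white blood cell markers lay in few cells. At least 5 UMIs of 10 defining markers of other cell types were held by 32 untreated and 6 anti-OX40/CpG T cells. The anti-PD-L1 and PDOX libraries had 34 and 29 such T cells, so by this count the anti-OX40/CpG library stood apart. Monocyte markers in these other libraries summed to 27.2 and 16.8 UMIs per 10000, between the untreated and the anti-OX40/CpG sums. Leaving out the 6 cells kept 647 UMIs of the monocyte marker *Psap* and 2196 of the hemoglobin gene *Hba-a1* in the anti-OX40/CpG library. Values without these 32 and 6 cells are called values without marker-rich cells. They are given beside the single ratios that these cells moved by over 1.5 times or whose call they changed. The NK cell markers did not move together. *Fcer1g* (ratio 0.261) and *Tyrobp* were lower, while *Klre1* (4.91), *Klrb1c* (2.90) and *Eomes* (1.70) were higher. Without marker-rich cells *Fcer1g* and *Tyrobp* were higher too, at 3.33 and 3.13. The 4 NKT cell markers were higher after anti-OX40/CpG, at 1.12 and 1.97 UMIs per 10000, with a UMI in 73 and 292 cells. Without marker-rich cells *Il2rb*, also a gene of other T cells, had 85 and 387 UMIs and *Zbtb16* had 4 and 5. NKT cells were not separated from other T cells. Transcripts of T cell receptor constant and variable genes and markers of gamma-delta T cells were not analysed here.

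T cells were split by their UMIs of *Cd8a* or *Cd8b1*, the genes of the CD8 coreceptor, and of *Cd4*. CD8 T cells numbered 324 in the untreated library (46.5% of T cells, exact 95% interval 42.7% to 50.3%) and 673 in the anti-OX40/CpG library (45.4%, 42.9% to 48.0%). CD4 T cells numbered 102 (14.6%, 12.1% to 17.5%) and 264 (17.8%, 15.9% to 19.9%). The CD8 share of each library lay within the other's interval. The CD4 share of each lay outside the other's, though the intervals overlapped, and after thinning each cell to 750 UMIs the CD4 shares were 9.82% and 10.5%. Transcripts of both coreceptors were found in 3.73% and 4.25% of T cells and of neither in 35.2% and 32.5%, and these cells enter only the values for all T cells. A cell without a coreceptor UMI is not shown to lack the coreceptor at this depth.

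Among the gene lists described below, cytotoxic effector genes had the highest median ratio over all T cells (log2 1.26) and immediate early genes the lowest (-0.42). In CD8 T cells the NK cell receptor genes had a higher median (1.31) than the cytotoxic genes (1.05), and so did the effector transcription factors in CD4 T cells (0.94 against 0.60). Without marker-rich cells the *Ifitm* family (3.52) and the NK cell receptor genes (1.74) exceeded the cytotoxic genes (1.13) over all T cells. Over all T cells, 416 of 7036 genes measured were higher (5.91%) and 576 were lower (8.19%) than in untreated T cells. In CD8 T cells, 308 of 4753 genes were higher (6.48%) and 398 lower (8.37%), and in CD4 T cells 277 of 2222 were higher (12.5%) and 164 lower (7.38%). These splits depend on the scaling: with TMM factors, which centre the bulk of the genes, 586 genes were higher and 406 lower over all T cells and 442 and 230 in CD8 T cells, and with median-of-ratios factors 379 and 279 in CD8 T cells. The gene lists below were therefore set beside the median log2 ratio of all genes, which was -0.05 over all T cells, -0.07 in CD8 and 0.06 in CD4 T cells. TMM moved this median by 0.12 in CD8 T cells. At 2-fold, 141 genes were higher (2.0%) and 169 lower (2.4%) over all T cells, 95 (2.0%) and 57 (1.20%) in CD8 and 74 (3.33%) and 55 (2.48%) in CD4 T cells. Without marker-rich cells, 432 of 6863 genes were higher (6.29%) and 541 lower (7.88%) over all T cells, 327 of 4711 (6.94%) and 389 (8.26%) in CD8 T cells, and 239 of 2136 (11.2%) and 172 (8.05%) in CD4 T cells.

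**Figure D1:**
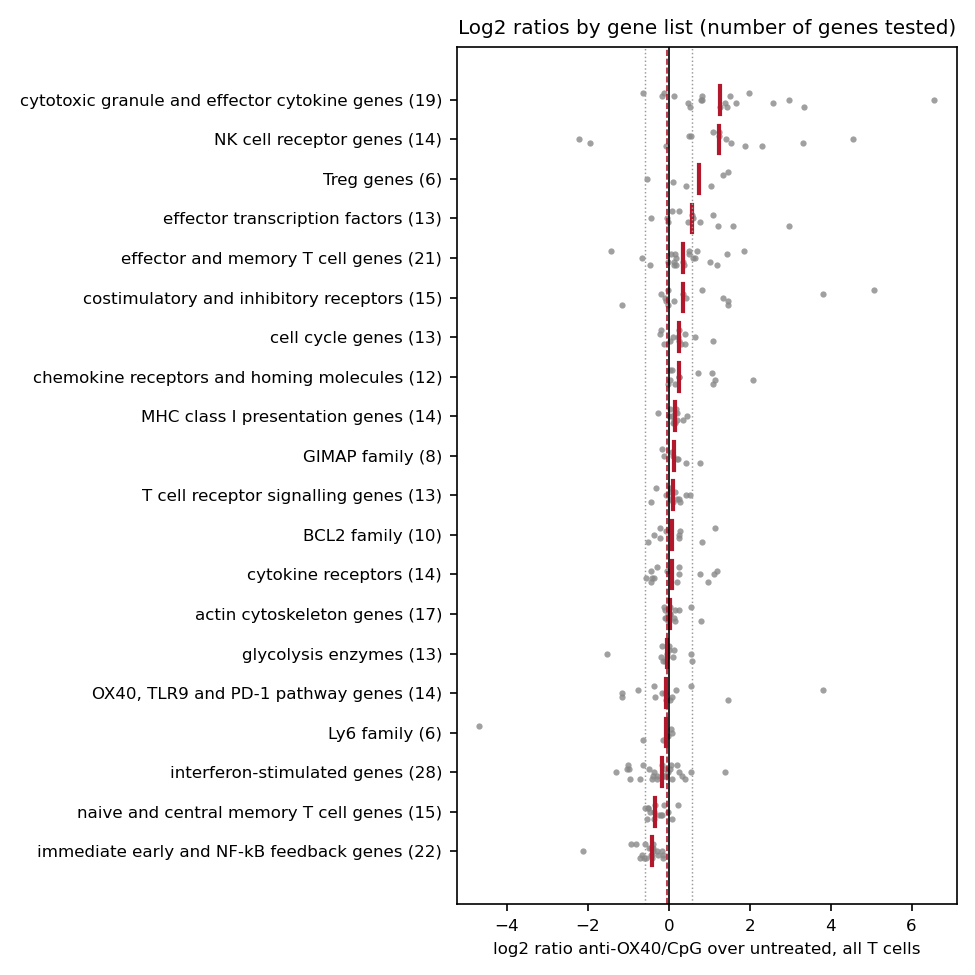
Log2 ratio of anti-OX40/CpG over untreated T cells (x axis) for each gene with at least 50 UMIs in each list (rows, number of genes in parentheses). Gray points are genes, red bars the median of the list, the dashed red line the median of all genes and the dotted lines a 1.5-fold ratio. The cytotoxic genes have the highest median (1.26), and the immediate early and NF-kB feedback genes the lowest (-0.42).

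Of the 19 measured genes of cytotoxic granules and effector cytokines, 13 were higher and 1 was lower over all T cells, with a median log2 ratio of 1.26. Among CD8 T cells 11 of 16 were higher and none lower. Of the 5 measured in CD4 T cells 3 were higher and 1 lower. *Ccl5*, a chemokine that effector and memory T cells store, had 1974 UMIs in untreated and 34359 UMIs in anti-OX40/CpG T cells, or 17.1 and 133 UMIs per 10000. Its ratio was 7.82 (7.47 to 8.19) over all T cells, 8.54 (8.07 to 9.04) in CD8 and 4.59 (3.75 to 5.67) in CD4 T cells.

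In the anti-OX40/CpG library more cells held *Ccl5*, and they held more of it on average. The share of T cells with a *Ccl5* UMI was 15.2% (12.6% to 18.1%) in the untreated and 46.2% (43.6% to 48.8%) in the anti-OX40/CpG library, and these cells held on average 18.6 and 50.2 UMIs. With every cell thinned to 750 UMIs, which leaves out 86 untreated and 161 anti-OX40/CpG T cells that were shallower, the shares were 13.4% and 37.3%. *Ccl5* was also found in 4 of 29 untreated and 2 of 7 anti-OX40/CpG B cells (median 1221 and 1305 UMIs). These B cells are too few to set a background level for either library. Of the untreated *Ccl5* UMIs, 65.0% lay in CD8 T cells. Among CD4 T cells the share was 6.86% and 33.7%, whereas the mean per holding cell was nearly the same (14.6 and 14.3 UMIs).

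Granzymes are the serine proteases that cytotoxic granules deliver to a target cell. *Gzma* had 83 UMIs in 27 untreated cells and 1852 UMIs in 128 anti-OX40/CpG cells, or 0.717 and 7.19 UMIs per 10000, a ratio of 10 (8.04 to 12.6). *Gzmb* had 29 and 387 UMIs, or 0.251 and 1.5 UMIs per 10000, a ratio of 6.00 (4.11 to 9.07) that became 9.16 without marker-rich cells. *Gzmk* was nearly absent from the untreated library, with 1 UMI against 210 UMIs in 81 anti-OX40/CpG cells, a ratio of 94.4 with a wide interval (16.8 to 3744). None of the 29 untreated and 1 of the 7 anti-OX40/CpG B cells held *Gzma*, and none of either held *Gzmb* or *Gzmk*.

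The granzymes differed between the lineages in where their UMIs lay. The ratios in CD8 T cells were 11.2 for *Gzma* (8.09 to 15.9), 6.34 for *Gzmb* (3.94 to 10.9) and 69.6 for *Gzmk* (12.3 to 2765). Without marker-rich cells those of *Gzma* and *Gzmb* became 27.1 (16.4 to 48.6) and 15.6 (7.47 to 39.2). CD4 T cells held 3 and 10 UMIs of *Gzma*, 7 and 11 of *Gzmb*, and 0 and 23 of *Gzmk*. Against a floor of 3 UMIs, the *Gzmk* ratio in CD4 T cells was thus at least 2.83, while the intervals for *Gzma* (0.316 to 6.95) and *Gzmb* (0.205 to 1.76) hold 1. All 3 genes had too few UMIs in CD4 T cells for a call. Of the *Gzma* UMIs of the anti-OX40/CpG library, 52.4% lay in CD8 T cells, 0.540% in CD4 T cells and 41.9% in cells with neither coreceptor. Of its *Gzmk* UMIs, these parts were 75.7%, 11% and 3.33%.

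*Nkg7*, a granule membrane protein needed for degranulation, was at 7.78 and 18.6 UMIs per 10000 in all T cells, a ratio of 2.39 (2.22 to 2.57). Its ratio was 1.99 (1.84 to 2.16) in CD8 T cells, where 68.5% and 80.2% of cells held it, and 8.77 (5.25 to 15.8) in CD4 T cells, where 4.90% and 24.6% did. In CD4 T cells thinned to 750 UMIs the shares were 4.35% and 19.5%, and *Nkg7* was in 1 of 29 and 1 of 7 B cells. *Ifng*, the main antiviral and antitumor cytokine of these cells, had 10 UMIs in untreated and 87 UMIs in anti-OX40/CpG T cells, a ratio of 3.91 (2.03 to 8.44).

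The chemokine genes *Ccl3* and *Ccl4* were higher as well, at ratios of 2.72 (1.91 to 3.99) and 2.62 (2.0 to 3.49). Without marker-rich cells these became 12.4 and 5.83, because those cells held most of the untreated UMIs. The other members that were higher were the protease inhibitor gene *Serpina3g* (3.18), the death ligand *Fasl* (2.85), *Serpinb6b* (1.76), *Gzmm* (1.75) and the cathepsin inhibitor *Cst7* (1.74). *Prf1*, the pore-forming perforin, was at 0.156 and 0.144 UMIs per 10000 with a ratio of 0.924 (0.513 to 1.72). The lysosomal membrane gene *Lamp1* was lower (0.645), but not without marker-rich cells (0.872).

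**Figure D2:**
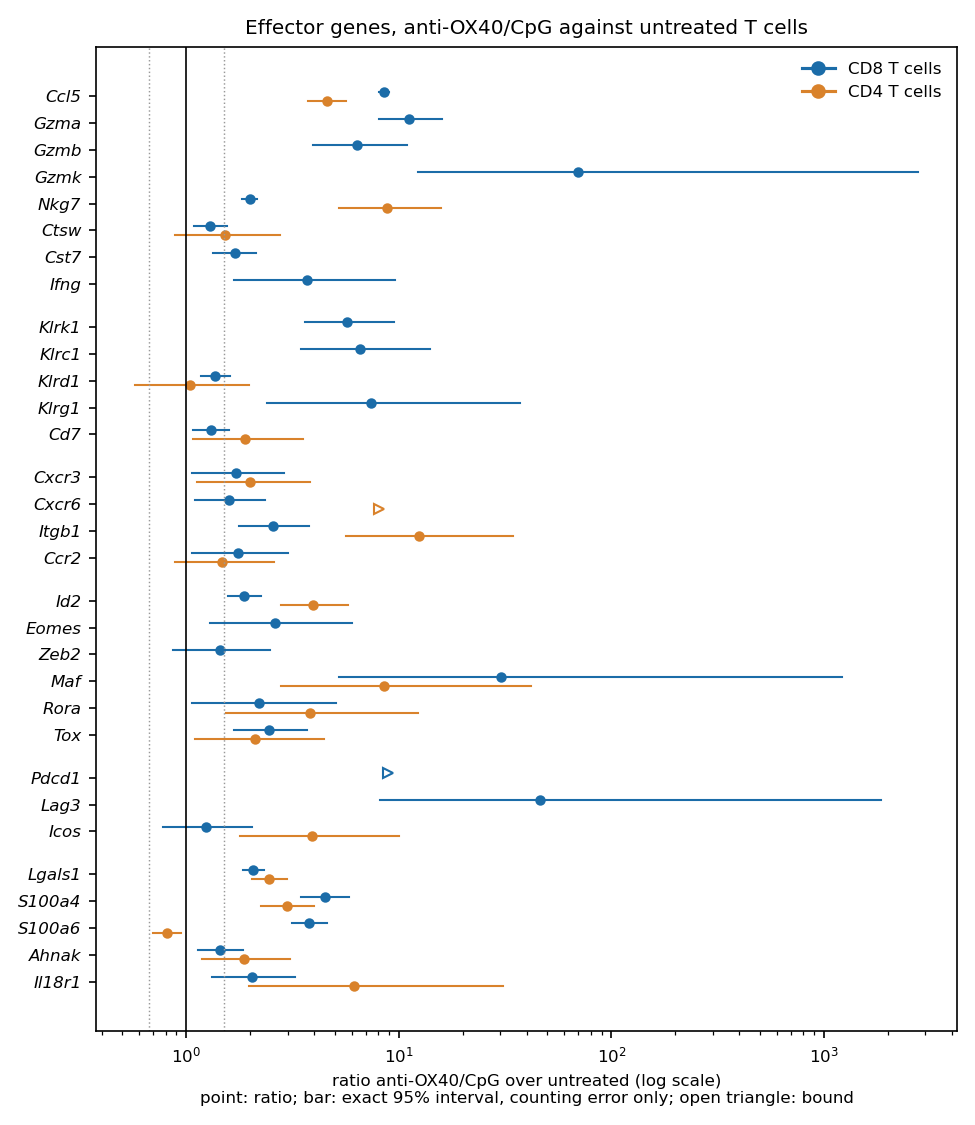
Ratio of anti-OX40/CpG over untreated levels (x axis, log scale) for effector genes in CD8 (blue) and CD4 (orange) T cells, where at least 50 UMIs were counted. Points are ratios, bars exact 95% intervals for counting error only, open triangles lower bounds for genes with no UMI in untreated cells, and dotted lines a 1.5-fold ratio. *Gzmk* (69.6), *Lag3* (46.4) and *Maf* (30.2) lie farthest to the right in CD8 T cells, and *Itgb1* (12.5) in CD4 T cells.

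Receptors first described on NK cells, which effector CD8 T cells also display, made up the second group. Of 14 measured genes, 9 were higher and 2 lower over all T cells, with a median log2 ratio of 1.23. *Klrk1*, which encodes the activating receptor NKG2D, had 58 and 477 UMIs, or 0.501 and 1.85 UMIs per 10000, a ratio of 3.70 (2.81 to 4.94). *Klrc1*, which encodes the inhibitory receptor NKG2A, had 11 and 245 UMIs, or 0.0950 and 0.951 UMIs per 10000, a ratio of 10 (5.50 to 20.3). No B cell of either library held *Klrk1* or *Klrc1*, and after thinning *Klrk1* was in 2.13% and 8.41% of T cells and *Klrc1* in 0.655% and 4.39%.

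CD8 T cells had a *Klrk1* ratio of 5.71 (3.62 to 9.50) and a *Klrc1* ratio of 6.56 (3.47 to 14.0), and *Klrg1*, a receptor of late effector cells, had 7.44 (2.41 to 37.3). Among CD4 T cells *Klrk1* had a ratio of 1.35 (0.633 to 3.21), and *Klrg1* had 15 untreated UMIs in 2 cells and 22 anti-OX40/CpG UMIs in 9 cells. *Klre1* (4.91), *Klra7* (23.6, interval 6.37 to 197, from 2 and 105 UMIs), *Klrb1c* (2.90), *Klrc2* (2.67), *Klra9* (2.35) and *Cd160* (2.14) were also higher over all T cells. *Klra7* became 42.2 and *Klra9* 3.78 without marker-rich cells. Reads of *Klrc* and *Klra* genes can be split between near-identical family members, so values of single members are uncertain. The adaptor genes *Fcer1g* and *Tyrobp*, which monocytes and NK cells express, were lower at 0.261 and 0.214. Both were higher without marker-rich cells, at 3.33 and 3.13. Many UMIs of this group lay outside the CD8 T cells. Without marker-rich cells, anti-OX40/CpG CD8 T cells held 15 of 58 *Klrb1c*, 36 of 105 *Klra7*, 42 of 149 *Fcer1g* and 53 of 148 *Tyrobp* UMIs. For *Klre1* they held 74 of 142, for *Klrc2* 71 of 119 and for *Cd160* 77 of 119. Whether the other UMIs came from NK or NKT cells was not tested.

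**Figure D3:**
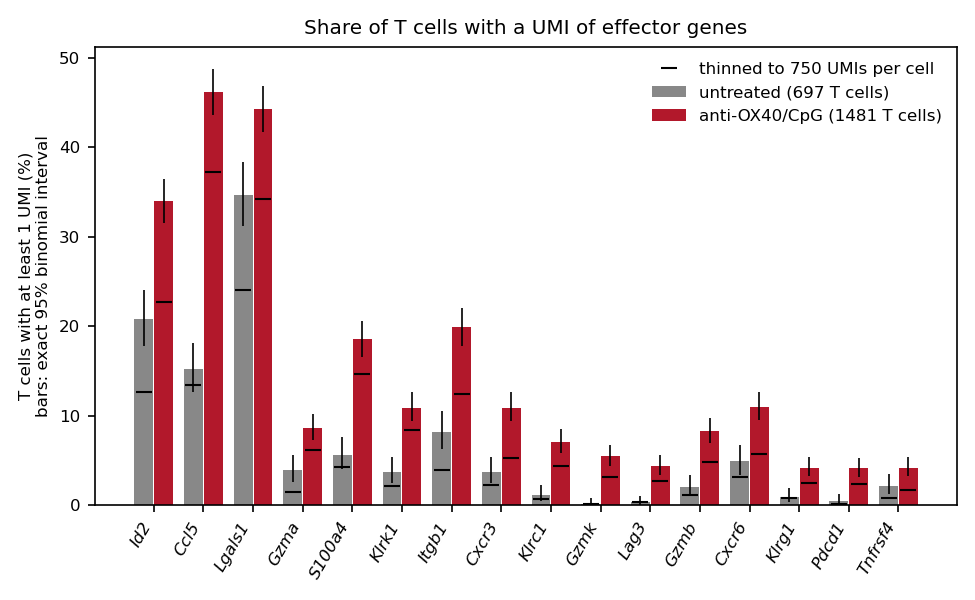
Share of T cells with at least 1 UMI (y axis, percent) of 16 effector genes in the untreated (gray, 697 cells) and the anti-OX40/CpG library (red, 1481 cells). Error bars are exact 95% binomial intervals, and black dashes the shares after thinning each cell to 750 UMIs. The *Ccl5* share is 15.2% and 46.2%, and the *Gzmk* share 0.143% and 5.47%.

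Transcription factors of effector differentiation were measured for 13 genes, of which 6 were higher and none lower over all T cells (median log2 ratio 0.58). *Id2*, which blocks E proteins and favours effector over memory precursor fates, was at 2.68 (2.39 to 2.99) and 6.12 (5.82 to 6.43) UMIs per 10000. Its ratio was 2.28 (2.02 to 2.59) over all T cells, 1.87 (1.57 to 2.24) in CD8 and 3.96 (2.78 to 5.80) in CD4 T cells. The share of cells with *Id2* was 20.8% and 34.0%, with 1 of 29 and 0 of 7 B cells holding it.

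*Bhlhe40*, a regulator of cytokine production, had 5 and 88 UMIs, a ratio of 7.91 (3.26 to 25). *Tbx21*, which encodes T-bet, had a ratio of 3.02 (1.36 to 7.91) from 7 and 47 UMIs, and its relative *Eomes* had 1.70 (1.02 to 2.99). *Tox*, a factor of chronically stimulated T cells, was at 0.544 and 1.26 UMIs per 10000, with ratios of 2.45 in CD8 and 2.11 in CD4 T cells. *Rora* (2.12) and *Ikzf3* (1.51, or 1.42 without marker-rich cells) were the other members above 1.5. *Zeb2*, a factor of terminal effector cells, was at 0.976 and became 2.36 without marker-rich cells.

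*Maf* encodes a factor that drives interleukin 10 and belongs to no list used here. It had 20 UMIs in untreated and 199 UMIs in anti-OX40/CpG T cells, a ratio of 4.47 (2.82 to 7.48). Both lineages showed it, with 1 and 69 UMIs in CD8 T cells (ratio 30.2, interval 5.24 to 1210) and 3 and 69 UMIs in CD4 T cells (8.48, interval 2.78 to 42.1). *Maf* was held by 14.0% of anti-OX40/CpG CD4 T cells (10.1% to 18.8%) and by 0.980% of untreated ones, and by no B cell.

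Of the 12 measured chemokine receptor and homing genes 5 were higher over all T cells, 4 of 11 in CD8 and 3 of 8 in CD4 T cells, and none was lower. *Cxcr3*, the receptor for interferon-induced chemokines, had 50 and 239 UMIs, a ratio of 2.15 (1.58 to 2.97), with 1.71 in CD8 and 2.0 in CD4 T cells. *Cxcr6*, a receptor of tissue-resident cells, had 57 and 278 UMIs, a ratio of 2.19 (1.64 to 2.97). No UMI of *Cxcr6* was found in the 102 untreated CD4 T cells, against 66 UMIs in 32 of the 264 anti-OX40/CpG CD4 T cells, which puts it at least 8.11-fold higher. The ratio in CD8 T cells was 1.59 (1.10 to 2.34).

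*Itgb1*, a gene of the effector and memory list that encodes the shared chain of the integrins that bind extracellular matrix and VCAM, was at 0.665 and 2.43 UMIs per 10000, a ratio of 3.66 (2.88 to 4.70). It was 2.56 (1.77 to 3.80) in CD8 and 12.5 (5.63 to 34.4) in CD4 T cells, from 6 and 203 UMIs in the latter. The other 3 homing genes that were higher over all T cells were *S1pr5* (4.24), *Itgb2* (1.66) and *Cx3cr1* (2.1). *Cx3cr1* became 6.60 without marker-rich cells and had 6 and 2 UMIs in CD4 T cells.

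The target of the antibody was itself higher. *Tnfrsf4* had 16 UMIs in untreated and 98 UMIs in anti-OX40/CpG T cells, or 0.138 and 0.38 UMIs per 10000, a ratio of 2.75 (1.61 to 5.0). It was too rare within the lineages for a call, with 5 and 27 UMIs in CD4 and 5 and 20 in CD8 T cells. *Tlr9*, the receptor for CpG, had no UMI in the T cells of either library, and its upper limit was 0.0319 UMIs per 10000 in untreated and 0.0143 in anti-OX40/CpG T cells.

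Inhibitory receptors of activated T cells were nearly absent from the untreated library. *Pdcd1*, which encodes PD-1, had 3 and 94 UMIs over all T cells, a ratio of 14.1 (4.67 to 69.5), and 0 and 61 UMIs in CD8 T cells, where it was at least 8.90-fold higher. *Lag3* had 2 and 148 UMIs, a ratio of 33.2 (9.04 to 277). The share of CD8 T cells with *Lag3* was 0.309% and 6.54%, or 0.337% and 4.00% after thinning, and 1 of the 7 anti-OX40/CpG B cells held a UMI of it. *Ctla4* (2.56, interval 1.41 to 5.03), *Tnfrsf9* (2.76) and *Icos* (1.78) were also higher. Without marker-rich cells *Tnfrsf9* had a ratio of 8.65 from 2 and 43 UMIs, too few for a call. *Icos* had a ratio of 3.90 (1.80 to 10) in CD4 T cells.

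*Cd274*, which encodes PD-L1, had 37 UMIs in each library, a ratio of 0.449, and turned to 1.35 without marker-rich cells. Of 15 measured costimulatory and inhibitory receptors, 6 were higher and 1 lower. *Foxp3*, the factor that defines regulatory T cells, had 11 and 34 UMIs with a ratio of 1.39 (0.687 to 3.04), and in CD4 T cells 4 and 9 UMIs. *Ikzf2*, which regulatory and some activated T cells express, was higher at 2.08 over all T cells and 3.13 in CD4 T cells. *Mki67*, a gene of dividing cells, had 14 and 22 UMIs, a ratio of 0.706 (0.345 to 1.49). Among the 414 and 1378 T cells without any UMI of an other-cell marker the *Mki67* ratio was 5.58, so its direction rests on few UMIs. Of 13 measured cell cycle genes 2 were higher and none lower.

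Within the anti-OX40/CpG CD8 T cells, the cells with *Gzmk* and those with *Gzma* both held NK cell receptor transcripts, while their shares with *Lag3* and *Pdcd1* lay apart. Of 61 cells with a *Gzmk* UMI, 45.9% held *Lag3* (33.1% to 59.2%) and 42.6% held *Pdcd1* (30.0% to 55.9%), against 2.61% and 1.47% of the CD8 T cells without it. Of 70 cells with a *Gzma* UMI, 7.14% held *Lag3* and 7.14% *Pdcd1* (2.36% to 15.9% for each), against 6.47% and 4.98% of the CD8 T cells without it. *Klrc1* and *Klrk1* were found in 40.0% and 42.9% of the *Gzma* cells, against 6.30% and 7.79% of the others, and in 21.3% and 26.2% of the *Gzmk* cells, against 8.66% and 9.97%. *Klrg1* was in 24.3% of the *Gzma* and 24.6% of the *Gzmk* cells, against 1.66% and 1.96% of the others. All 61 *Gzmk* cells also held *Ccl5* and *Nkg7*, against 51.5% and 78.3% of the CD8 T cells without *Gzmk*. *Gzmb* was in 73.8% of the *Gzmk* cells and 5.07% of the others, and in 42.9% of the *Gzma* cells and 7.63% of the others. Both sets overlapped in 21 cells. Cells with *Gzmk* held a median of 2337 UMIs and those without 1770, cells with *Gzma* 2128 and those without 1780, and the part of depth in these shares was not tested.

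Genes that memory and effector cells keep at a high level formed a list of 21, of which 7 were higher and 2 lower over all T cells. In CD8 T cells 10 of 20 were higher and none lower, and in CD4 T cells 9 of 20 were higher and 2 lower. *Lgals1*, which encodes galectin 1, was at 7.5 and 15.2 UMIs per 10000, a ratio of 2.03 (1.89 to 2.19), with 2.07 in CD8 and 2.46 in CD4 T cells. *S100a4* and *S100a6*, calcium-binding proteins of motile cells, had ratios of 2.72 (2.4 to 3.10) and 1.42 (1.31 to 1.53).

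The values of this list depended on the marker-rich cells, and monocytes also express many of its genes. Without marker-rich cells 14 of 21 were higher and none lower over all T cells, 14 of 20 in CD8 and 16 of 20 in CD4 T cells. The ratio of *S100a4* became 10.9 and that of *S100a6* 5.74. *Lgals3*, which encodes galectin 3, went from 0.632 to 4.65, and *Anxa1* from 0.373 to 1.35. *Ly6a*, which encodes the activation marker Sca-1, went from 0.910 to 1.99. Of its 554 untreated UMIs, 164 lay in 1 cell, and 227 remained without marker-rich cells.

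Genes of naive and central memory T cells lay below 1 for the most part without reaching the fold over all T cells. None of 15 was higher or lower, their median log2 ratio was -0.34, and only *S1pr1* (1.16) and *Il7r* (1.05) were above 1 in that comparison. In CD8 T cells 4 were lower: the transcription factor genes *Klf2*, at 27.3 and 16.2 UMIs per 10000 with a ratio of 0.593 (0.554 to 0.634), and *Tcf7* (0.639), and the homing receptor genes *Ccr7* (0.619) and *Ccr9* (0.623). *Lef1*, another transcription factor gene of naive T cells, was lower in CD4 T cells, at a ratio of 0.646. With TMM factors 1 gene was lower in CD8 T cells, so the number of calls rests on the scaling. Without marker-rich cells 5 of 15 were lower over all T cells, 4 of 15 in CD8 and 6 of 13 in CD4 T cells.

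**Figure D4:**
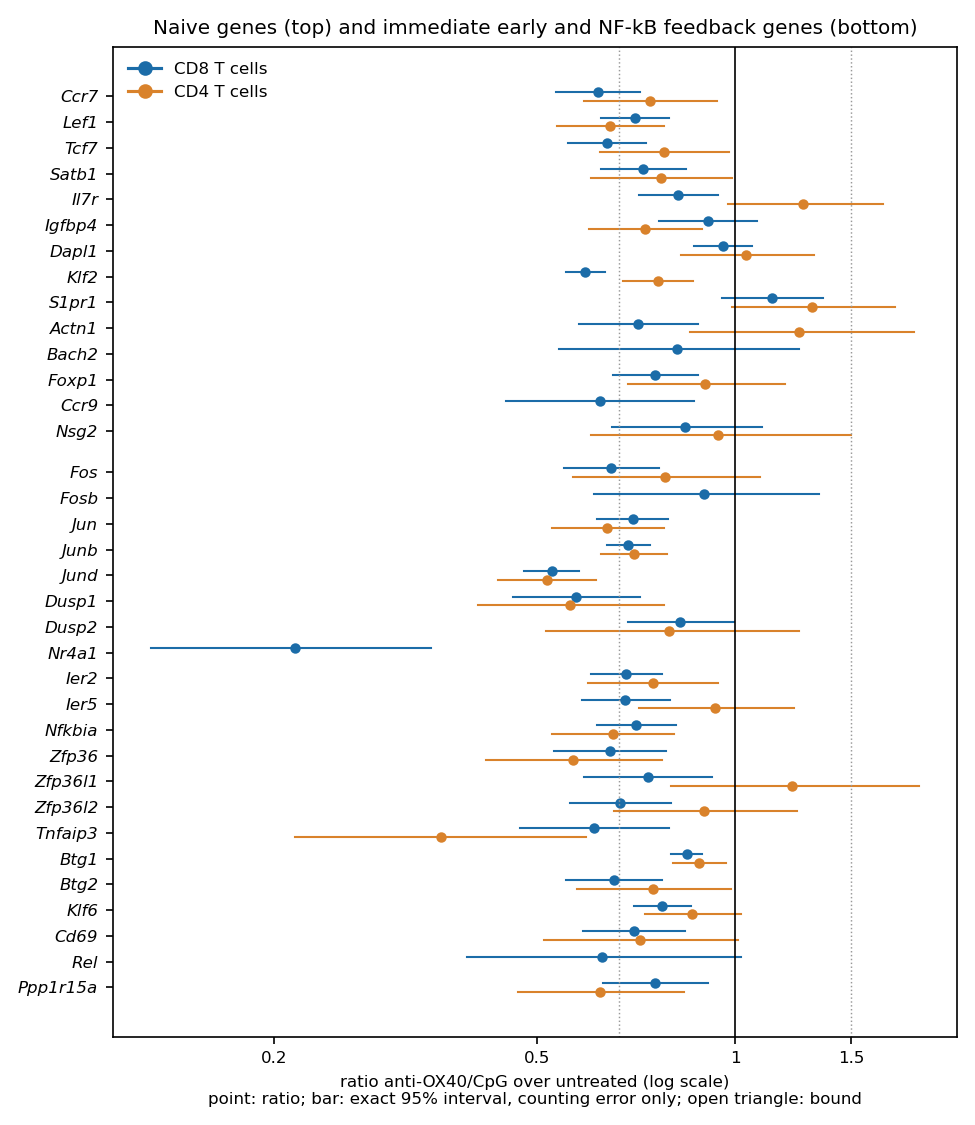
Ratio of anti-OX40/CpG over untreated levels (x axis, log scale) for naive genes (top) and immediate early and NF-kB feedback genes (bottom) in CD8 (blue) and CD4 (orange) T cells, where at least 50 UMIs were counted. Points are ratios, bars exact 95% intervals for counting error only, and dotted lines a 1.5-fold ratio. *Nr4a1* lies lowest in CD8 T cells (0.215), and all genes of the lower group lie left of 1 in CD8 T cells.

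Immediate early genes are switched on within minutes of antigen receptor or stress signals, and the feedback genes of NF-kB are induced by that factor and limit it. All 22 genes of this list lay below 1 over all T cells, from 0.232 to 0.909, and 6 of them were lower. In CD8 T cells 8 of 21 were lower and in CD4 T cells 7 of 18, with median log2 ratios of -0.42 over all T cells, -0.55 in CD8 and -0.45 in CD4 T cells. The medians stayed below 0 under each scaling, and with TMM factors 4 of 22, 4 of 21 and 6 of 18 genes were lower.

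*Nr4a1*, which encodes the orphan receptor Nur77, a common readout of antigen receptor signals, had 151 UMIs in 116 untreated cells and 78 UMIs in 72 anti-OX40/CpG cells. This is 1.30 (1.10 to 1.53) and 0.303 (0.239 to 0.378) UMIs per 10000, a ratio of 0.232 (0.174 to 0.307), with 0.215 in CD8 and 0.246 in CD4 T cells. Without marker-rich cells, CD4 T cells held 22 and 18 UMIs of it, too few for a call. The shares of T cells with *Nr4a1* were 16.6% and 4.86%, or 9.33% and 2.80% after thinning, beside 4 of 29 and 0 of 7 B cells. *Jund*, an AP-1 subunit, was at 14.1 and 7.33 UMIs per 10000, a ratio of 0.520 (0.487 to 0.556), with 0.527 in CD8 and 0.518 in CD4 T cells.

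*Fos*, another AP-1 subunit, was at 4.35 and 2.83 UMIs per 10000, a ratio of 0.650 (0.579 to 0.729) that became 0.707 without marker-rich cells. *Dusp1*, a phosphatase that switches off MAP kinases, was at 2.82 and 1.71, a ratio of 0.608 (0.526 to 0.704). *Zfp36*, which encodes the mRNA decay factor tristetraprolin, had a ratio of 0.630 (0.556 to 0.716) and became 0.671 without marker-rich cells. *Tnfaip3*, which encodes the NF-kB inhibitor A20, had a ratio of 0.570 (0.470 to 0.691), and 0.358 (0.215 to 0.595) in CD4 T cells.

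Because the genes of this list lay below 1 together, the RefSeq promoter windows of mouse genes (GRCm38.p6, the assembly of the files' mm10 build, 250 bases before to 50 after the start) were searched for 7 motifs on both strands. The motifs were chosen after the values were seen. The letters TGACG, the core of the cyclic AMP response element that CREB and ATF factors bind, were in the windows of 11 of 18 list genes with a window (61.1%) and of 23% of 27025 genes. Of the genes lower in CD8 T cells it was in 6 of 8 (*Btg2*, *Dusp1*, *Fos*, *Nr4a1*, *Rel* and *Tnfaip3*), and of the cytotoxic genes in 5 of 17. The full element TGACGTCA, which holds TGACG on both strands, was in 3 of 18 (16.7%) and in 2.0% of all genes. The NF-kB motif, searched as GGGA and CC parted by any 4 bases, was in 7 of 18 (38.9%), in 5 of the 8 genes lower in CD8 T cells (62.5%) and in 22.9% of all genes, and the AP-1 motif TGANTCA in 2 of 18 and 9.0%. The T-box motif AGGTGTGA was in 1 of 18 and 1.5%. The interferon response motif, searched as GAAA and GAAA parted by any 2 bases, was in 1 of 18 and 4.0%. For the serum response element only 1 fixed spelling was searched, without open positions, and it was in 0 of 18 and 0.1%. Since only 21 of 27025 genes hold this spelling, its absence cannot show whether the list genes have the element. A match is a description of these letters and not a site. The 250 bases before the start of 3 genes that were lower in CD8 T cells are shown, 5′ to 3′ on the strand of the gene, with TGACG or its complement CGTCA in capitals.
Nr4a1, chr15:101266596-101266845, plus strand: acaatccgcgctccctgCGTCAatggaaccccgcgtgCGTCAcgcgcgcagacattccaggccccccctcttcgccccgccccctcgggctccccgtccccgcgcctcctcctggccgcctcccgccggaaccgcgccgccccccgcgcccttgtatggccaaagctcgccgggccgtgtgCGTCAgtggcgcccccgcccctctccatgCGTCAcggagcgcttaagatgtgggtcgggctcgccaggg
Fos, chr12:85473640-85473889, plus strand: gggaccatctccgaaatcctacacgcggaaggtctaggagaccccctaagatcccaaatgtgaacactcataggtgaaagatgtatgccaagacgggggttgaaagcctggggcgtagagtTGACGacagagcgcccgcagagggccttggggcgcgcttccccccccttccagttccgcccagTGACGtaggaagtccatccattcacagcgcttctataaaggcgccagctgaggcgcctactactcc
Dusp1, chr17:26508473-26508722, minus strand: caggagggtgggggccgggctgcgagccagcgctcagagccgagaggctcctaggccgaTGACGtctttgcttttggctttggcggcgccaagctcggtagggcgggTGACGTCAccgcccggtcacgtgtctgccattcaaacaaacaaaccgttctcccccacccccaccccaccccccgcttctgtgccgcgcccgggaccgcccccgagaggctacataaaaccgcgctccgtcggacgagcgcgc

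*Nr4a1* has 4 matches in this stretch, *Fos* has 2, and *Dusp1* has 3, of which 2 overlap in the full element. *Jund* and *Zfp36*, also lower in CD8 T cells, have no TGACG in their windows. A relation between matches and ratios was not tested.

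Genes induced by interferon were not higher as a group. Of 28 measured genes 1 was higher and 7 were lower over all T cells, with a median log2 ratio of -0.16. The GTPase gene *Iigp1* was higher (2.61, interval 1.32 to 5.72). *Ifit1* (0.403), *Ifit3* (0.490), *Rtp4* (0.501), *Usp18* (0.505), *Isg15* (0.510), *Oasl2* (0.614, or 0.847 without marker-rich cells) and *Irf7* (0.636) were lower. *Isg15* was at 0.608 and 0.588 UMIs per 10000 in CD8 T cells with a ratio of 0.968. Over all T cells its ratio was 0.810 without marker-rich cells, where 2 genes of the list were higher and 5 lower.

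The interferon-induced transmembrane genes of the *Ifitm* family depended on a few cells of the untreated library. *Ifitm1* had 303 UMIs in 6 untreated and 692 UMIs in 61 anti-OX40/CpG T cells, a ratio of 1.03 (0.895 to 1.18). Without marker-rich cells it had 2 and 692 UMIs, a ratio of 139 (38.4 to 1152). *Ifitm2* went from 0.716 to 51.5 and *Ifitm3* from 0.199 to 2.56. *Ifitm1* had, in CD8 T cells, no untreated UMI and 175 in anti-OX40/CpG cells, at least 25.5-fold higher.

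The lowest ratios over all T cells belonged to transcripts of other cells or of single cells. *Lyz2* was at 31.3 and 2.97 UMIs per 10000 (0.0949, interval 0.0877 to 0.103), the B cell receptor component *Cd79a* at 0.916 and 0.0543 (0.0593) and the monocyte chemokine *Ccl9* at 0.553 and 0.0505 (0.0913). Without marker-rich cells *Lyz2* was at a ratio of 0.0581, while *Cd79a* (0.134, 21 and 7 UMIs) and *Ccl9* (7 and 2 UMIs) had too few UMIs for a call. Of the 177 untreated UMIs of *Upk3bl*, 118 lay in 1 cell. On the other side, 498 of 510 anti-OX40/CpG UMIs of *Crct1* and 173 of 175 of *Cnfn*, both genes of cornified epithelium, lay in 1 cell each, as did 52 of 61 of the plasma cell gene *Jchain*.

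The 2 other treated libraries of the series give the levels under other treatments. With 1 library a group they cannot show how far libraries of the same treatment lie apart. Each was compared with the same untreated library, so their values are set side by side only. *Ccl5* was at 17.1 UMIs per 10000 without treatment, at 38.5 after anti-PD-L1, at 133 after anti-OX40/CpG and at 184 after PDOX, which combines both antibodies with CpG. In that order *Gzma* was at 0.717, 3.67, 7.19 and 11, *Gzmk* at 0.00864, 0.148, 0.815 and 1.25 and *Id2* at 2.68, 3.42, 6.12 and 12.1. *Tox* and *Maf* were highest in the anti-OX40/CpG library, at 1.26 and 0.772, with 0.712 and 0.652 in the PDOX library. *Nr4a1* was at 1.30, 0.862, 0.303 and 0.219. Against the untreated library, 297 genes were higher (4.20%) and 403 lower (5.69%) in the anti-PD-L1 and 553 (8.04%) and 772 (11.2%) in the PDOX T cells. *Lyz2* was at 13.7 UMIs per 10000 in the anti-PD-L1 and 9.03 in the PDOX library.

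**Figure D5:**
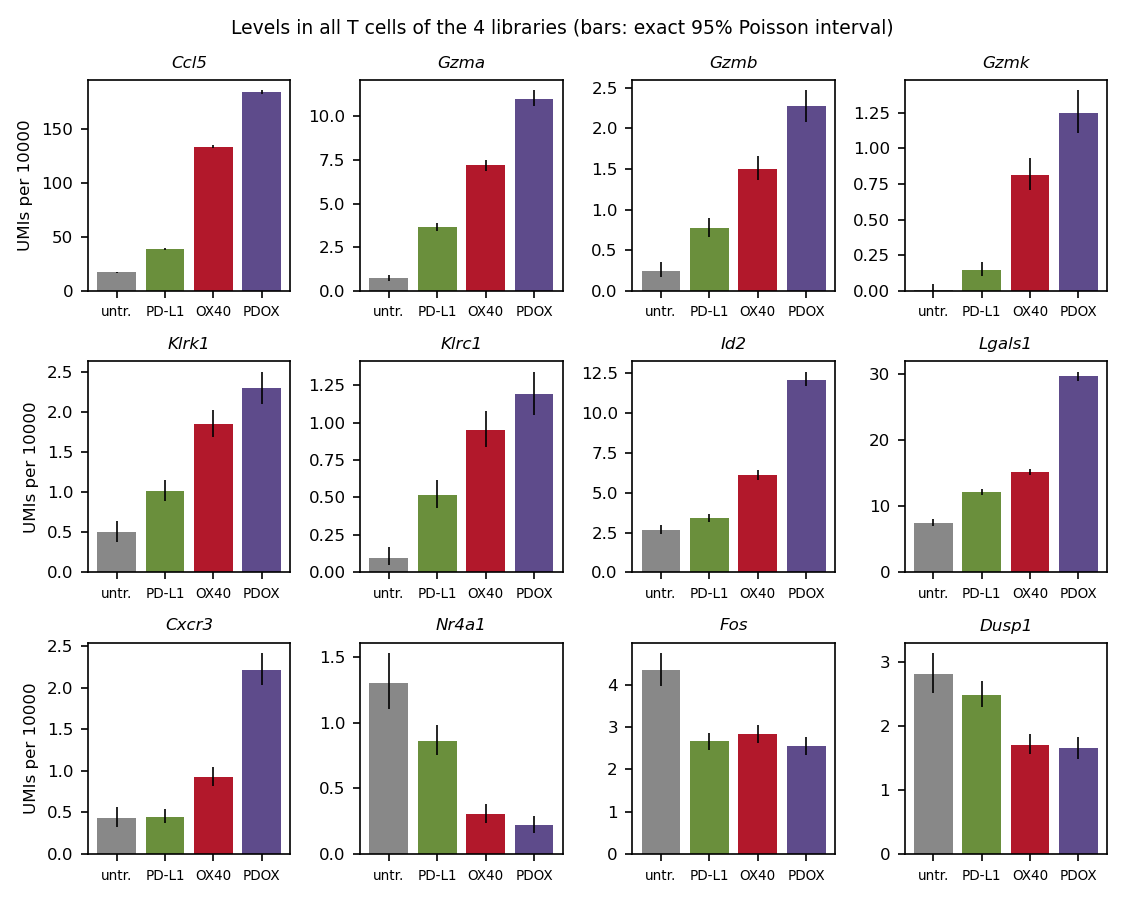
Level of 12 genes (y axis, UMIs per 10000, 1 panel each) in all T cells of the untreated (gray), anti-PD-L1 (green), anti-OX40/CpG (red) and PDOX (purple) libraries, with 1 library each. Error bars are exact 95% Poisson intervals for counting error only. *Ccl5* and the granzyme genes are lowest in the untreated and highest in the PDOX library, and *Nr4a1* runs the other way, from 1.30 to 0.219.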

How the data were processed

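The authors made droplet-based 3′ libraries from T cells enriched from blood, processed the reads with Cell Ranger and deposited whole UMI counts per gene and cell, not normalized, for 27998 genes. The submitters' processing notes name mm10 and Seurat 2. How cells were called and how many mice entered a library are not given in the sources used here, beyond the record's mention of 4 mice.

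Gene numbers and totals exclude 13 mitochondrial, 109 ribosomal and 8 hemoglobin genes. UMIs were summed over the T cells of each library, overall and for cells with *Cd8a* or *Cd8b1* UMIs and no *Cd4* or the reverse. Levels carry exact Poisson, ratios exact conditional binomial and shares exact Clopper-Pearson intervals at 95% (scipy 1.17.1). A library at 0 was set to a floor of 3 UMIs, and no ratio is given where both libraries held 3 UMIs or fewer. B cells held *Cd79a* and *Cd79b* or *Ms4a1* and no CD3 transcript. Cells were thinned to 750 UMIs with a fixed seed. Scrublet (scanpy 1.11.5) called 13 untreated and 5 anti-OX40/CpG cells doublets (0.770%), which were kept in the main values. The 2 libraries share 1 cell barcode, and 16 barcodes occur in more than 1 of the 4 libraries. TMM factors came from edgeR 4.0.16 and no count model was fitted, since each group is 1 library. The ratio intervals were checked on simulated counts drawn independently for each gene, which is the model they assume. UMIs clustered in few cells were not simulated, so the check does not cover genes with such UMIs.

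Named are the 12 highest and lowest ratios over all T cells with the same side of 1 in both lineages, the 8 highest and lowest per lineage, the 5 genes with the largest difference between lineages in each direction, a fixed set of targets and effector genes, and members of 21 gene lists (322 of their 327 genes are in the files). Not all of them are printed, and 1 member of the naive list counts in its totals but is not reported here. *Maf* and genes held mostly by 1 cell are named by these rules too. The members, the lists and the rules were chosen with earlier results of these data known. Tried were 16 alternatives, 14 planned and 2 added after the data were seen: leaving out marker-rich cells, and leaving out each gene's cell with the most UMIs. Sequences are from RefSeq, GRCm38.p6.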

Additional observations from a re-analysis of the deposited data

Results flagged for a closer look

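The genes below had a ratio of anti-OX40/CpG over untreated T cells past 1.5-fold in opposite directions in CD8 and CD4 T cells, and the difference between the lineages was not tested. *Ifitm1* was at least 25.5-fold higher in CD8 T cells (0 and 175 UMIs) and had a ratio of 0.494 (0.370 to 0.663) in CD4 T cells, where 84 of 85 untreated UMIs lay in 1 cell. *Lgals3* had a ratio of 1.70 (1.25 to 2.35) in CD8 and 0.323 (0.238 to 0.437) in CD4 T cells. *Ly6a* had a ratio of 1.97 (1.48 to 2.66) in CD8 and 0.577 (0.485 to 0.687) in CD4 T cells, where 164 of 216 untreated UMIs lay in 1 cell. In CD4 T cells without marker-rich cells, *Ifitm1* was at least 11.8-fold higher, *Lgals3* had a ratio of 5.23 and *Ly6a* of 2.1, on the same side as in CD8 T cells. The *Lgals3* ratio in CD8 T cells became 3.75 (2.43 to 6.05) without marker-rich cells.

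*Tnfsf8*, which encodes the ligand of CD30, was lower in CD8 T cells (34 and 45 UMIs, ratio 0.579, interval 0.363 to 0.932) and higher in CD4 T cells (6 and 45 UMIs, ratio 2.76, interval 1.18 to 7.93). It kept both directions without marker-rich cells, at 0.554 and 2.80.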

How the results depend on the processing

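With 1 library a group, leaving out a replicate was not possible. No paired analysis was possible because each group has 1 library and no test was run. Depth limits rare receptor and cytokine genes within the lineages, above all in the 102 untreated CD4 T cells.

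The numbers of genes higher and lower changed by more than 1.5 times with the threshold. At 2-fold they were 141 (2.0%) and 169 (2.4%) over all T cells, 95 and 57 in CD8 and 74 and 55 in CD4 T cells. With at least 20 UMIs they were 787 and 1151, 722 and 925, and 819 and 576, and with no minimum 1217 and 3809, 1358 and 3806, and 1690 and 4025. Thinned to 750 UMIs per cell, where fewer genes reach 50 UMIs, they were 271 and 299, 171 and 169, and 93 and 71. With TMM factors 230 genes were lower in CD8 T cells, and without each gene's top cell 88 were lower in CD4 T cells. Thinned lineage shares were 9.82% for untreated CD4, 42.3% for anti-OX40/CpG CD8 and 10.5% for anti-OX40/CpG CD4 T cells.

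Of 300 gene ratios under the alternatives (4421 values), 36 values of 17 ratios that were called higher or lower turned direction, most of them when cells with other markers were left out. Leaving out every T cell with a UMI of such a marker gave over all T cells *Anxa1* 1.38, *Cd274* 2.28, *Fcer1g* 3.05, *Ifitm3* 1.62, *Jchain* 0.761, *Lgals3* 4.42, *Oasl2* 1.02, *Prss22* 1.11, *Prss27* 1.71 and *Tyrobp* 2.79, in CD8 T cells *Fcer1g* 1.32 and *Tyrobp* 1.84, and in CD4 T cells *Ifitm3* 1.34, *Lamp1* 1.36, *Lgals3* 13.7 and *Ly6a* 2.77. Leaving out the marker-rich cells alone gave *Anxa1* 1.35, *Cd274* 1.35, *Fcer1g* 3.33, *Ifitm3* 2.56, *Lgals3* 4.65, *Prss22* 1.01 and *Tyrobp* 3.13, in CD8 T cells *Fcer1g* 1.95, *Ifitm3* 1.5 and *Tyrobp* 3.17, and in CD4 T cells *Ifitm3* 2.70, *Lgals3* 5.23 and *Ly6a* 2.1. *Lgals3* over all T cells was 1.5 after thinning and 1.07 with equal weight per cell. In CD4 T cells *Ly6a* was 1.65 after thinning, 1.5 with equal weight per cell and 2.34 without its top cell, and with lineages gated at a log1p level above 1 *Lgals3* was 1.53 and *Ly6a* 1.93. The cause of these changes was not tested.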

Other observations

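Several gene groups of T cell biology had few calls over all T cells, where 5.91% of all genes were higher and 8.19% lower. For groups of this size such counts lie near the share of all genes. Of 14 genes of MHC class I presentation, none was higher or lower over all T cells, and their median log2 ratio was 0.15. In CD4 T cells 3 of 13 were higher (23.1%, against 12.5% of all genes), and 2 of 13 without marker-rich cells. Over all T cells none of 13 genes of T cell receptor signalling was higher or lower (median 0.11). Of 17 actin cytoskeleton genes only *Tmsb10*, which encodes the actin-binding peptide thymosin beta-10, was higher. *Tmsb10* was at 80.8 and 140 UMIs per 10000, a ratio of 1.74 (1.70 to 1.78), with 1.68 in CD8 and 1.76 in CD4 T cells, and was at 128 in the anti-PD-L1 and 79.8 in the PDOX library. Of 13 glycolysis enzymes, *Pgk1* alone was lower, at 1.29 and 0.446 UMIs per 10000 with a ratio of 0.347 (0.269 to 0.445). *Bcl2*, a survival gene of resting T cells, had a ratio of 0.642 (0.572 to 0.720) in CD8 and 0.576 (0.447 to 0.745) in CD4 T cells, while its relatives *Bcl2a1b* (2.22) and *Bcl2a1d* (1.78), whose reads can be split between near-identical copies, were higher over all T cells. *Bcl2a1d* became 2.77 without marker-rich cells. Of 14 cytokine receptors 4 were higher, among them *Il2rb*, the shared chain of the interleukin 2 and 15 receptors (1.98), and *Il18r1*, with ratios of 2.04 (1.32 to 3.24) in CD8 and 6.14 (1.98 to 30.8) in CD4 T cells.

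Some of the most different genes have no known part in effector function. *Mfsd11*, a membrane transporter gene, was at 0.285 and 1.96 UMIs per 10000, a ratio of 6.88 (4.83 to 10.1), with 0.219 in the anti-PD-L1 and 0.124 in the PDOX library. *Polr2l*, an RNA polymerase subunit gene, was at 0.562 and 2.12, with 0.762 and 0.352 in the other 2 libraries. *Gm10076* was at 5.34 and 39.0 (ratio 7.31, interval 6.74 to 7.94) and was held by 53.5% and 94.9% of T cells and by 8 of 29 and 6 of 7 B cells, with 7.33 and 1.29 UMIs per 10000 in the other libraries. *Gm10263* (ratio 6.77) and *Gm10116* (0.149) differed likewise. Predicted genes such as these can share reads with near-identical copies elsewhere, so their values are uncertain.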
